A study of Mus musculus with 5 samples.

Results

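The replication-dependent histone genes were examined for mJunB binding and for the active chromatin mark H3K27ac in mouse muscle stem cells (MuSCs). They were taken as the protein-coding genes of GENCODE M21 (mm10) whose symbol begins with Hist1h, Hist2h, Hist3h or Hist4h, which gave 67 of 21951 protein-coding genes. The peak lists came from CUT&RUN-seq, in which an antibody directs a nuclease to cut out the DNA next to its target. Each library was made from MuSCs of muscle: JunB was mapped in 3 libraries of young mice (young replicates 1 to 3) and in 1 of aged mice, and H3K27ac in 1 further library, for which the labels give no age. Strain, sex and age in months are not in the labels for any library. The titles assign the JunB libraries to Young and Aged, a design note speaks of DMSO and MVC treatment instead, and the titles were followed. A gene was counted as bound or marked when a peak came within 1 kb of one of its annotated transcription start sites (TSS).

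Replication-dependent histone genes encode the bulk of the proteins around which DNA is wound, the core histones H2A, H2B, H3 and H4 and the linker histone H1, and they are transcribed mainly in S phase, when new DNA has to be packed. They are short, mostly without introns, and lie in clusters where an H2A and an H2B gene are often transcribed away from each other from a shared promoter. Their mRNAs end in a conserved stem-loop instead of a poly(A) tail. MuSCs of resting muscle are largely outside the cell cycle. mJunB is a subunit of the dimeric transcription factor AP-1, whose usual site is TGACTCA or TGAGTCA, and some of its dimers also bind the related cyclic AMP response element (CRE), TGACGTCA.

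The 67 genes comprised 6 H1, 18 H2A, 18 H2B, 12 H3 and 13 H4 genes. The Hist1 cluster on chromosome 13 held 54 of them in 4 blocks, the Hist2 cluster on chromosome 3 held 10, the Hist3 cluster on chromosome 11 held 2 and the Hist4 cluster on chromosome 6 held 1. The 1 kb windows of neighbouring genes often overlapped, so that the genes formed 38 loci, of which 22 held several genes, and 1 peak could count for 2 or 3 genes. For 11 genes the annotated record was the coding sequence alone, so that their start site stands at the start codon.

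The stem-loop, which the gene names did not use, was sought as a 16-base pattern of its fixed letters on the strand of the gene within 150 bases after the stop codon in GRCm38. It was found in 63 of the 67 genes (94.0%) and in 3 of 21685 other protein-coding genes with a stop codon (0.0138%). The 3 others were H2afx, H2bfm and Lrrc75b. The forms found in at least 8 genes are shown because they are the common feature of the family at the RNA level. The pattern left free the 3rd and 4th base of each arm and the last base of the loop. Capitals mark the arms of the stem and lower case the loop.
Form of 41 genes: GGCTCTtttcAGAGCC
Form of 9 genes: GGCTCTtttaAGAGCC
Form of 8 genes: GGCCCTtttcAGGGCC
The pattern was not found in Hist2h2be, Hist1h2an, Hist1h3g and Hist1h4a.

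Of the JunB libraries, the aged library carried a peak at the most histone genes. Its peaks came within 1 kb of 19 of 67 genes (28.4%, exact 95% interval 18.0 to 40.7%), against 20.9% of all protein-coding genes. In young replicate 1, 3 of 67 genes had a peak (4.48%, interval 0.933 to 12.5%), against 8.77% of all protein-coding genes. In young replicate 2 there was no peak at any of the 67 genes (interval 0 to 5.36%, or up to 4.48% by a limit of 3 counts), against 6.24% of all protein-coding genes. Young replicate 3 also had none of 67, with the same interval, against 4.71%. The young shares lay below those of all genes and the aged share above, but the intervals of the aged library and of young replicates 1 and 3 include the share of all genes. Within 500 bp of a TSS, 20.9% of histone genes and 19.5% of all genes had an aged peak, so that the difference there was 1.39 points and not 7.41. The intervals and the limit cover counting error only, and they are too narrow for genes that share peaks.

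H3K27ac, a mark of active promoters and enhancers, was found at 40 of 67 histone genes (59.7%, interval 47.0 to 71.5%), against 45.9% of all protein-coding genes. Clustered genes have more chances to lie near a peak, so the genes were also set beside the 3209 protein-coding genes with another protein-coding TSS within 1 kb. Of these, 78.1% carried H3K27ac, 40.0% an aged JunB peak and 16.3%, 11.9% and 9.07% a JunB peak in young replicates 1, 2 and 3. In all 5 libraries the share of the 67 histone genes was below this second share. Only 28 of the 67, however, themselves had another TSS within 1 kb. These 28 carried H3K27ac at 20 (71.4%, interval 51.3 to 86.8%) and an aged JunB peak at 6 (21.4%, interval 8.30 to 41.0%). None of the 28 had a young JunB peak (interval 0 to 12.3%). All of these intervals include the second share except that of young replicate 1. The 80 other protein-coding genes within 250 kb of the histone blocks had an aged JunB peak at 11 (13.8%) and H3K27ac at 32 (40.0%).

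**Figure D1:**
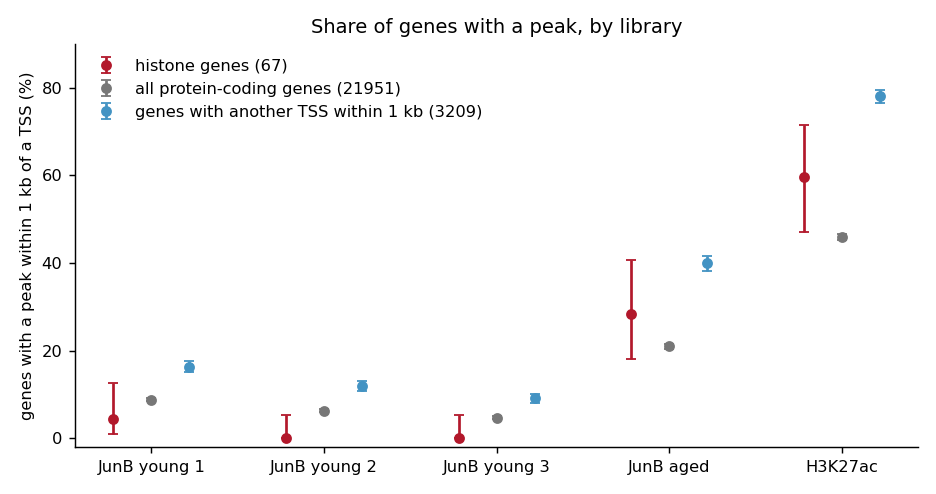
The share of genes with a peak within 1 kb of a TSS (y axis, percent) in each of the 5 libraries (x axis), for the 67 histone genes, all 21951 protein-coding genes and the 3209 genes with another TSS within 1 kb. Points are shares and bars exact 95% binomial intervals. The histone genes lie at 4.48, 0 and 0% in the young libraries, 28.4% in the aged library and 59.7% for H3K27ac, below the closely spaced genes in each library. Of the 67 histone genes shown, 28 have another TSS within 1 kb.

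The mean share of histone genes bound in the young libraries was 1.49% ± 2.59 (SD, n = 3), and the aged share was 26.9 percentage points higher. Young replicate 1 alone supplied the young peaks, and without it the young mean was 0 and the difference 28.4 points. Its peak names carry the tag gfp, which those of the other young lists do not. The study's methods describe a sort by GFP for MuSCs of control and JunB knockout mice. For young and aged mice they describe a sort by surface markers that include VCAM. They do not say what the tag stands for, so whether these cells were obtained in another way is not known here. For all protein-coding genes the young mean was 6.57% ± 2.05 (SD, n = 3) and the aged share was 14.4 points higher. The aged value lay outside the young range for the histone genes and for all genes alike. With 1 aged library the 4 JunB libraries allow only 4 arrangements of the age labels, so no test was made, and age cannot be told apart from the single library. Nothing in the labels says whether the young libraries came from separate mice beyond calling them biological replicates.

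The JunB lists also differed in length and in threshold. The aged list held 14123 peaks, and those of young replicates 1, 2 and 3 held 9534, 4884 and 3863. The lowest −log10 p, the strength of a peak against its local background, was 3.01 in the aged list and in young replicate 1, 5.33 in young replicate 2 and 5.22 in young replicate 3. With each list cut to its 3863 strongest peaks, 4 histone genes (5.97%) kept an aged peak, against 7.71% of all protein-coding genes. These 4 genes were Hist2h2aa1, Hist2h2aa2, Hist2h3c1 and Hist2h3c2. No histone gene then had a young peak, against 4.36, 4.84 and 4.71% of all genes in young replicates 1, 2 and 3. With all 4 lists held to the highest of these thresholds, 12 histone genes (17.9%) had an aged peak, against 17.6% of all genes. In young replicate 1, 2 histone genes (2.99%) had a peak, against 8.08% of all genes. In young replicates 2 and 3 none had one, against 6.24 and 4.70%.

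An aged peak without any young peak was found at 16 histone genes (23.9%), against 12.1% of all protein-coding genes. None of the 67 genes had a JunB peak in all 4 JunB libraries, against 3.48% of all genes, and none had one in at least 2 young libraries, against 5.99%. Without young replicate 1, the only young library with a peak at a histone gene, all 19 genes bound in the aged library were without a young peak. The share of all protein-coding genes was not counted under that setting. The nearest JunB peak lay at a median of 7797 bp from the TSS in the aged library, 84804 bp in young replicate 1, 249412 bp in young replicate 2 and 215410 bp in young replicate 3. In young replicate 2 the closest peak to any histone gene was 22304 bp away, and in young replicate 3 it was 41659 bp away. Such distances were not computed for all protein-coding genes, and a shorter list leaves longer distances anywhere. They therefore cannot be read as a trait of the histone genes.

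By class, the aged library had a peak at 6 of 18 H2A genes (33.3%), 5 of 18 H2B genes (27.8%), 5 of 12 H3 genes (41.7%) and 3 of 13 H4 genes (23.1%), against 20.9% of all protein-coding genes. None of the 6 H1 genes, which encode the linker histone, had a JunB peak in any library. H3K27ac was found at 12 of 18 H2A genes, 12 of 18 H2B genes, 7 of 12 H3 genes, 6 of 13 H4 genes and 3 of 6 H1 genes, which is 46.2 to 66.7% by class, against 45.9% of all protein-coding genes. The marked H1 genes were Hist1h1b, Hist1h1c and Hist1h1e. The classes hold 6 to 18 genes each, and no test between them was made. The H1 genes without H3K27ac were Hist1h1a, Hist1h1d and Hist1h1t, the last of which encodes a testis-specific linker histone.

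By cluster, the aged peaks were unevenly spread. All 10 Hist2 genes had an aged JunB peak and all 10 had H3K27ac. In the Hist1 cluster 7 of 54 genes (13.0%, interval 5.37 to 24.9%) had an aged peak, against 20.9% of all protein-coding genes. There 28 of 54 (51.9%, interval 37.8 to 65.7%) had H3K27ac, against 45.9%. Both Hist1 intervals include the share of all genes. Of the Hist3 genes, Hist3h2a had both kinds of peak and Hist3h2ba had neither, and the single Hist4 gene, Hist4h4, had both. The Hist2 genes lay in 5 loci, so their 10 counts are not 10 independent observations.

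**Figure D2:**
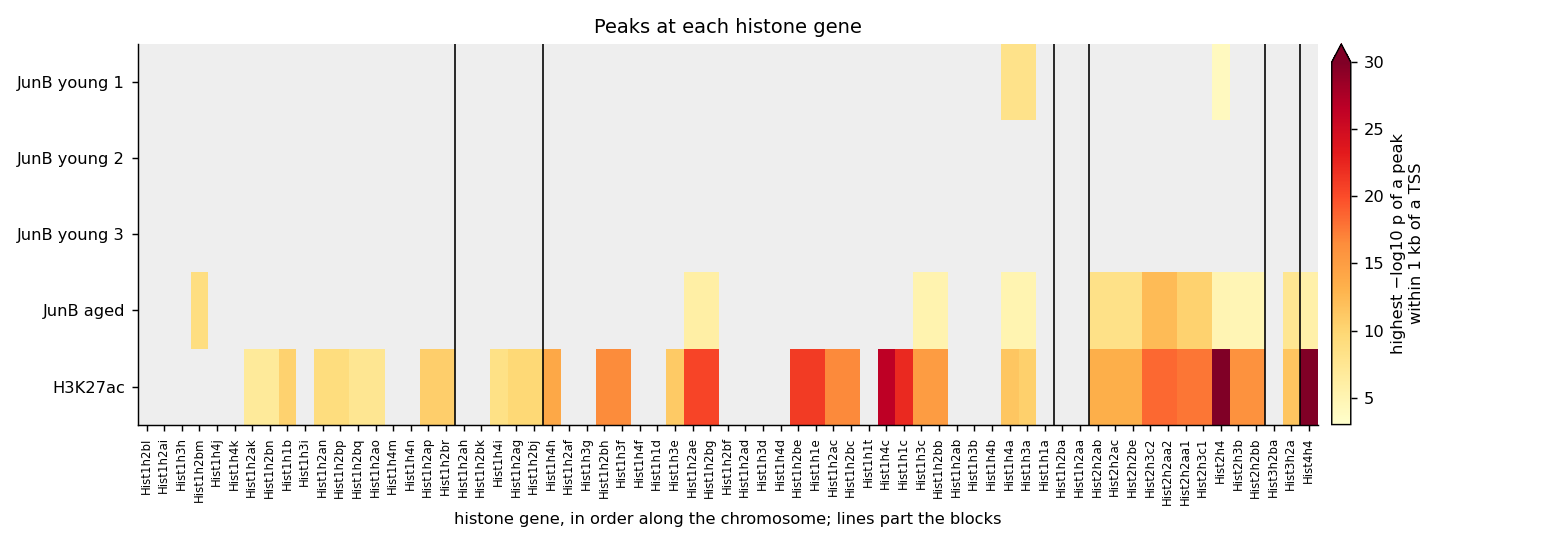
Peaks at each of the 67 histone genes (x axis, in order along the chromosome, lines between blocks) in the 5 libraries (y axis). Colour gives the highest −log10 p of a peak within 1 kb of a TSS, capped at 30, and grey means no peak. The aged JunB row is filled across the Hist2 genes and at 7 Hist1 genes, the young rows are empty but for 3 genes of replicate 1, and H3K27ac fills 40 genes.

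The Hist2 cluster spans chr3:96219865-96270132 (mm10). Within it the aged list held 7 JunB peaks, young replicate 1 held 1 and young replicates 2 and 3 held none. The aged peak at chr3:96226980-96227231, with a −log10 p of 6.84, lay outside all genes of the cluster and beyond 1 kb of their TSSs. The strongest of the aged peaks ran from the region before Hist2h3c2 across Hist2h2aa2, which encode an H3 and an H2A, at chr3:96239256-96240337, with a −log10 p of 12.3 (fold enrichment, 6.88). The next lay over Hist2h2aa1 and the region before Hist2h3c1 at chr3:96245116-96246568, with a −log10 p of 10.3 (fold enrichment, 5.70). These gene pairs are copies of each other. In windows of 1001 bp centred on the TSS, 98.4% of the bases of Hist2h3c1 matched Hist2h3c2, with an identical run of 504 bp, and 81.8% of those of Hist2h2aa1 matched Hist2h2aa2.

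The sequences around these summits are shown because the same DNA occurs at both loci, and they are followed by the summit in the coding sequence of Hist1h2bm and the summit upstream of Hist4h4, the only one of the 12 aged summits at histone genes with an AP-1 site within 50 bp. Each is 121 bases centred on the summit, on the plus strand of GRCm38. Capitals mark CCAAT boxes (CCAAT or ATTGG) and AP-1 sites.
Hist2h2aa2 and Hist2h3c2, chr3:96239369-96239489: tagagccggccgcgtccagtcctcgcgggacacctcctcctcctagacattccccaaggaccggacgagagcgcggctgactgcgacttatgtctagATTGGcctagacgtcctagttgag
Hist2h2aa1 and Hist2h3c1, chr3:96246272-96246392: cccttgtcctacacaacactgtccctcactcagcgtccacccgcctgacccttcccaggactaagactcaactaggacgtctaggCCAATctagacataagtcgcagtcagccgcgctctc
Hist1h2bm, chr13:21722298-21722418: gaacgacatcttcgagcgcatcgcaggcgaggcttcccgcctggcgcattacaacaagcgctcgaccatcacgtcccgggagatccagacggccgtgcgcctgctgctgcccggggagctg
Hist4h4, chr6:136805014-136805134: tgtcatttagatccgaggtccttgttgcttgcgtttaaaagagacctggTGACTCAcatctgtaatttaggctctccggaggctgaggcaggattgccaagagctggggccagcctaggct

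The other Hist2 genes were bound more weakly. A peak over Hist2h2ac with a −log10 p of 8.29 was also within 1 kb of Hist2h2ab and Hist2h2be, and a second one over the coding sequence of Hist2h2be had a −log10 p of 7.18. The aged peak 508 bp upstream of Hist2h4, which encodes H4, had a −log10 p of 4.996, and the peak between Hist2h3b and Hist2h2bb one of 4.69, the lowest among the histone genes. At Hist2h4 young replicate 1 also had a peak, with a −log10 p of 3.96 and its summit 268 bp downstream of the TSS, but the young and the aged peak did not overlap.

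**Figure D3:**
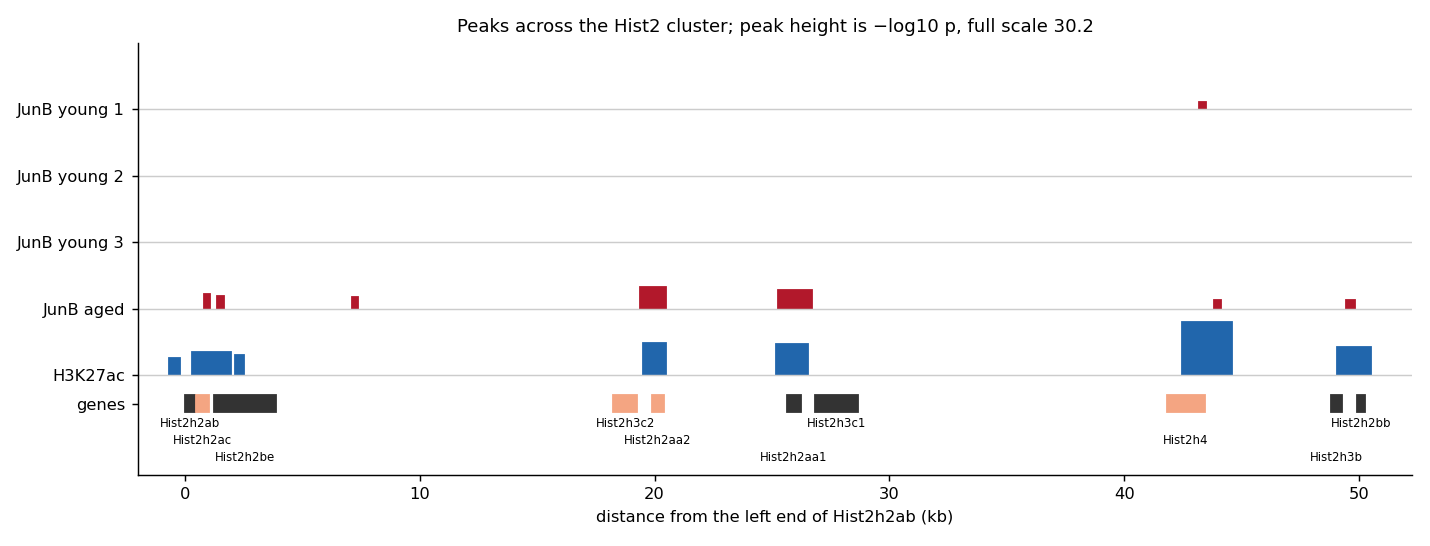
Map of the Hist2 cluster, with distance from the left end of Hist2h2ab in kb on the x axis and a track for each library on the y axis. Boxes are peaks with height proportional to −log10 p (full scale 30.2), JunB in red and H3K27ac in blue, and genes are dark on the plus strand and light on the minus strand. Aged JunB boxes stand at each gene group, most of them on an H3K27ac box, while young replicate 1 has a single box at Hist2h4. The aged box at chr3:96226980-96227231 lies away from the genes and from any H3K27ac box.

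In the Hist1 cluster the first block on the chromosome, from Hist1h2bl to Hist1h2br (chr13:21715763-21837530), had an aged peak at 1 of its 18 genes and H3K27ac at 9. The 5 genes from Hist1h2ah to Hist1h2bj had no JunB peak, and 3 of them had H3K27ac. The 29 genes from Hist1h4h to Hist1h1a (chr13:23531050-23764406) had an aged peak at 6 (20.7%) and H3K27ac at 16 (55.2%). Of all protein-coding genes, 20.9% had an aged peak and 45.9% H3K27ac. Hist1h2ba and Hist1h2aa, which encode testis histones and form the last block, had no peak in any library.

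The pair Hist1h3a and Hist1h4a, an H3 and an H4 gene in tandem on the minus strand, was the only histone locus with overlapping JunB peaks in 2 libraries. Young replicate 1 had a peak there at chr13:23760942-23761547, with a −log10 p of 8.11 (fold enrichment, 5.01), and the aged library had one at chr13:23761110-23761717, with a −log10 p of 5.11 (fold enrichment, 3.96). Neither peak was above the middle of its list, as they ranked at percentile 46.9 of the young list and 17.7 of the aged list. The summits were in the coding sequence of Hist1h4a in the young library and between the genes in the aged library. The sequence before the Hist1h4a start is printed because both peaks cover it and it holds 2 CRE copies. It is followed by that before Hist1h2bg, a gene counted as bound in the aged library, where CCAAT, the octamer (ATTTGCAT) and TATAAA occur together. In the promoters counted below, 16 of 16 H2B genes held CCAAT, 6 the octamer and 4 TATAAA. The aged peak at Hist1h2bg began downstream of the printed bases, at chr13:23571418, with its summit in the coding sequence. Each printed sequence gives the 150 bases upstream of the RefSeq start in GRCm38.p6, on the strand of the gene. Capitals mark CRE, CCAAT and octamer matches on either strand and TATAAA matches on the strand of the gene.
Hist1h4a, chr13:23761250-23761399, minus strand: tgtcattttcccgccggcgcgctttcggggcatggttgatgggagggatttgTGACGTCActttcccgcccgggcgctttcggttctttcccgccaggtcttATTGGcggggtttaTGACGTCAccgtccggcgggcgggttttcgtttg
Hist1h2bg, chr13:23571250-23571399, plus strand: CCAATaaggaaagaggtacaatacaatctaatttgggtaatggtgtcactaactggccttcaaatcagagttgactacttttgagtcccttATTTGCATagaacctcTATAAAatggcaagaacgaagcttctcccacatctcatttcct

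The remaining aged Hist1 peaks were single. The peak in the coding sequence of Hist1h2bm, at chr13:21722161-21722478, had a −log10 p of 8.83 and was the only aged peak at a histone gene without any H3K27ac peak within 1 kb of its TSS. The peak at Hist1h2bg and Hist1h2ae, an H2B and an H2A gene transcribed away from each other from a shared promoter, had a −log10 p of 6.02. Its summit lay 83 bp downstream of the Hist1h2bg TSS, in the coding sequence of that gene. The peak before Hist1h3c and Hist1h2bb had a −log10 p of 5.22. Outside Hist1 and Hist2, Hist3h2a had a peak with a −log10 p of 7.48 at chr11:58954622-58954881, and Hist4h4 one with a −log10 p of 5.72, 659 bp upstream of its TSS at chr6:136804996-136805288.

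As a group, the 12 aged peaks at histone genes had lower values than aged promoter peaks in general, a description without a test. Their median −log10 p was 6.60, against 7.98 for all 4293 aged peaks within 1 kb of a protein-coding TSS, their median percentile among all aged peaks was 41.3, against 59.4, and their median fold enrichment was 4.68, against 5.19. The 29 H3K27ac peaks at histone genes had a median −log10 p of 13.4, against 13.1 for all H3K27ac promoter peaks, a median percentile of 63.8, against 62.8, and a median width of 927 bp, against 769 bp. The medians at histone genes were thus close to the general ones for H3K27ac and below them for aged JunB.

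Summits often fell in coding sequence, which in these short genes lies within 1 kb of the start. Of the 12 aged JunB summits, 5 were in the coding sequence of a histone gene, in Hist3h2a, Hist1h2bm, Hist1h2bg, Hist2h2ac and Hist2h2be, and the other 7 were outside exons. Among all aged promoter peaks 7.45% had the summit in coding sequence. Of the 29 H3K27ac summits 15 were in coding sequence, against 7.79% of all H3K27ac promoter peaks.

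Many histone genes resemble each other, so the share of the 32-base words of each region that occur more than once on the chromosomes of GRCm38.p6 was computed. In the windows of 1 kb on each side of the TSS the median share was 24.5%, and in 10 of the 67 genes it was over 50%. Of the 12 aged JunB peaks, 5 (41.7%) had over 50% repeated words, against 2.73% of all aged promoter peaks, and of the 29 H3K27ac peaks 9 (31.0%) did, against 1.83%. The 2 strongest aged peaks, at the Hist2h2aa and Hist2h3c copies, had 94.5 and 83.5%, Hist1h2bm had 67.6% and Hist1h2ae with Hist1h2bg had 86.3%. The peak shared by Hist2h2ab, Hist2h2ac and Hist2h2be had 50.7%, and the second peak at Hist2h2ac and Hist2h2be had 19.2%. The other 6 peaks had none or up to 1.04%, at Hist3h2a, Hist4h4, Hist1h3c with Hist1h2bb, Hist1h3a with Hist1h4a, Hist2h4 and Hist2h3b with Hist2h2bb. The H3K27ac library had peaks at Hist1h2ao with Hist1h2bq and at Hist1h2ap with Hist1h2br, where all words of the windows were repeated. How reads that map to several places were treated is not given in the sources used here. The study's reporting summary describes paired-end reads longer than these 32-base words, and such reads may still map to a single place. The share of repeated words can therefore exceed the share of reads without a single place. When peaks with over 50% repeated words were left out, 11 histone genes (16.4%) had an aged peak, against 20.4% of all protein-coding genes, and 25 (37.3%) had H3K27ac, against 45.0%. The part of repeated sequence in the peaks was not tested further.

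**Figure D4:**
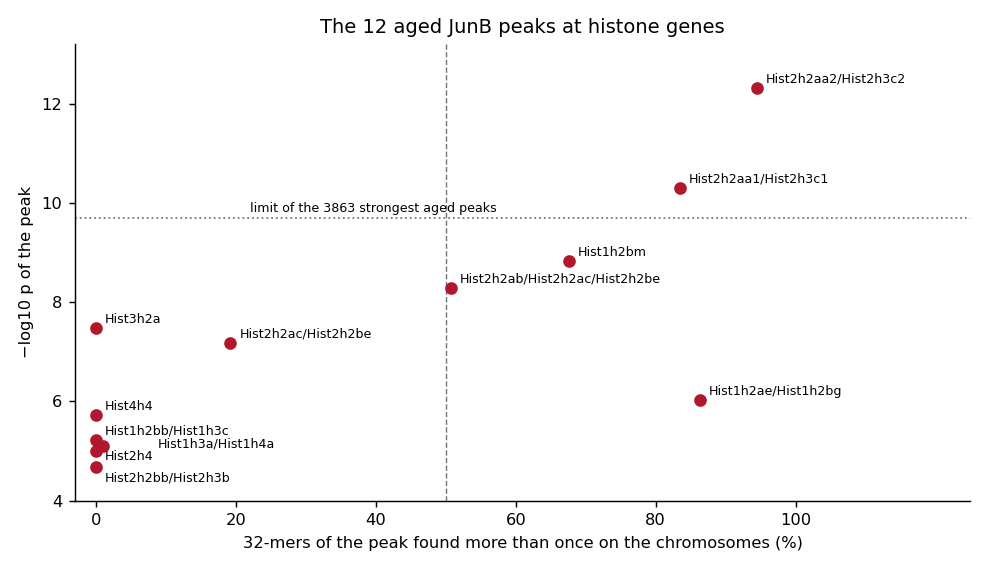
The 12 aged JunB peaks at histone genes, by the share of their 32-base words found more than once on the chromosomes (x axis, percent) and their −log10 p (y axis). The dashed line is at 50% and the dotted line is the −log10 p of the weakest of the 3863 strongest aged peaks. Both peaks above the dotted line, at the Hist2h2aa and Hist2h3c copies, have over 80% repeated words.

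H3K27ac and aged JunB were found together at 18 histone genes (26.9%), against 18.3% of all protein-coding genes, and H3K27ac without a JunB peak in any library at 22 (32.8%), against 26.4%. Among the 40 histone genes with H3K27ac, 18 (45.0%, interval 29.3 to 61.5%) had an aged JunB peak, against 40.0% of the 10065 protein-coding genes with H3K27ac. Among the 27 without it 1 (3.70%) had one, against 4.81% of the 11886 protein-coding genes without it. Within the marked genes the aged share of the histone genes was thus close to that of all genes. In young replicate 1, 3 of the 40 marked histone genes (7.50%) were bound, against 17.2% of marked protein-coding genes, and in young replicates 2 and 3 none of the 40 were, against 12.6% and 9.45%.

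The strongest H3K27ac peaks were at Hist4h4, with a −log10 p of 63.8, at Hist2h4, with 30.2, at Hist1h4c, with 26.5, at Hist1h1c, with 22.2, and at Hist1h1e, counted also for Hist1h2be, with 21.1. Hist4h4, Hist2h4 and Hist1h4c encode H4, and the next 2 regions hold genes of the linker histone. The last peak has its summit in the coding sequence of Hist1h1e. It reaches an annotated start of the 37455 bp record of Hist1h2be, whose stem-loop lies far from there, at chr13:23585531-23585546. Of these 6 genes, Hist4h4 and Hist2h4 also had an aged JunB peak. At Hist4h4 the JunB peak lay just upstream of the H3K27ac peak, without overlap. No H3K27ac peak was found at 27 genes. These were Hist1h2aa, Hist1h2ab, Hist1h2ad, Hist1h2af, Hist1h2ah and Hist1h2ai of H2A, and Hist1h2ba, Hist1h2bf, Hist1h2bk, Hist1h2bl, Hist1h2bm and Hist3h2ba of H2B. Among H3 and H4 genes they were Hist1h3b, Hist1h3d, Hist1h3g, Hist1h3h, Hist1h3i, Hist1h4b, Hist1h4d, Hist1h4f, Hist1h4j, Hist1h4k, Hist1h4m and Hist1h4n, and among H1 genes the 3 named above.

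Promoter motifs were counted in the RefSeq windows from 250 bases before to 50 after the start, which were found for 61 of the 67 genes, and in 32851 such windows of all genes. The CCAAT box, the site of NF-Y, was present on either strand in 52 of 61 histone promoters (85.2%), against 37.4% of all promoters. It was in every H1, H2A, H2B and H3 promoter matched and in 3 of 12 H4 promoters. TATAAA was in 29 (47.5%), against 8.32%, and the octamer ATTTGCAT, on either strand, in 13 (21.3%), against 1.74%, all 13 of H2A or H2B genes. The CRE was in 4 (6.56%), against 1.79%, at Hist1h4a, Hist1h4h, Hist1h2ag and Hist1h2bj. TGACTCA or TGAGTCA was in none of the 61, against 5.20% of all promoters. Of the 16 matched promoters bound in the aged library 7 held the octamer, as did 6 of the other 45. CCAAT was in 15 of the 16 and 37 of the 45, TATAAA in 6 and 23, and the CRE in 1 and 3. No test between bound and other promoters was made. Both octamer groups hold genes that share a promoter, such as Hist1h2ae with Hist1h2bg and Hist1h2ah with Hist1h2bk. In the 12 aged peaks themselves an AP-1 match was found in 1 (8.33%), that of Hist4h4, against 15.6% of all aged promoter peaks, and a CRE in 1, that of Hist1h3a with Hist1h4a, against 4.03%.

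Histone genes listed as replication-independent, a group expressed outside S phase and spread over the genome, were counted by the same rule. H2afx among them carried the stem-loop pattern given above. Of 11 genes, 2, 2 and 1 (18.2, 18.2 and 9.09%) had a JunB peak in young replicates 1, 2 and 3. The shares of all protein-coding genes were 8.77, 6.24 and 4.71%. In the aged library 4 (36.4%, interval 10.9 to 69.2%) had one, against 20.9%, and 5 (45.5%) had H3K27ac, against 45.9%. In each library the interval includes the share of all genes. H3f3b, which encodes the variant H3.3, was the only one with a JunB peak in all 4 libraries, with a −log10 p of 21.9 in the aged library and of 17.2, 15.7 and 8.06 in the young libraries by replicate number. Cenpa, the centromeric H3, had JunB peaks in every library but young replicate 3, and H2afz and H2afx had one in the aged library only.

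Genes linked to the making and processing of histone mRNA, with the cell cycle genes Cdk2, Ccne1, Ccne2 and Cdkn1a, were counted by the same rule. Of these 22 genes, 3, 2 and 1 (13.6, 9.09 and 4.55%) had a JunB peak in young replicates 1, 2 and 3. The shares of all protein-coding genes were 8.77, 6.24 and 4.71%. In the aged library 7 (31.8%) had one, against 20.9%. H3K27ac was at 16 (72.7%, interval 49.8 to 89.3%), against 45.9%. The intervals for the JunB libraries include the share of all genes. Zfp473, a zinc finger protein of the histone pre-mRNA processing complex, was bound in all 4 JunB libraries, with a −log10 p of 24.5 in the aged library and of 47.3, 36.1 and 37.8 in the young libraries by replicate number. Slbp, which binds the stem-loop, had a JunB peak in young replicate 1 (−log10 p of 6.52) and in the aged library (15.5), and Nfya, a subunit of NF-Y, in every JunB library but young replicate 3. Npat, the coactivator of histone transcription, had H3K27ac and no JunB peak.

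The labelled cell type was checked by the same rule. Of 8 MuSC markers, 3 (37.5%) had an aged JunB peak, against 20.9% of all protein-coding genes, and 3 (37.5%) had H3K27ac, against 45.9%. In the respective young libraries 1, 2 and 1 had a JunB peak. In each library the interval for these 8 genes includes the share of all genes. Myod1 carried a peak in all 5 libraries and Pax7, Itga7, Cdh15 and Calcr in none. Of 9 markers of leukocytes, endothelial cells, fibro-adipogenic progenitors and myofibres, Pdgfra had an aged JunB peak and none had H3K27ac (interval 0 to 33.6%). Peaks within 1 kb of a TSS therefore gave only a limited check of the label, and no expression was measured in these libraries.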

How the data were processed

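CUT&RUN-seq libraries of MuSCs were analysed from their deposited peak lists. Per the study's methods, the authors used Bowtie2 for alignment of trimmed reads to mm10, removed redundant reads and ran MACS2 with a p cutoff. Versions, a control library and the treatment of multiply mapping reads are not given in the sources used here. The deposited lists give for each peak a fold enrichment (a ratio to the local background), −log10 p and −log10 q values, a summit and a score, which was not used. They hold no read counts, so the depth behind each peak is unknown, and the read totals that the study's supplements give were not used here.

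Genes and start sites were taken from GENCODE M21, and peaks were joined to genes by position. Sequences came from GRCm38.p6 and from RefSeq. Python 3.11.15 was used with numpy 2.4.6, pandas 2.3.3 and scipy 1.17.1, and bedtools 2.31.1 was used to check overlaps. On simulated data all 3000 of 3000 planted peaks were recovered. Intervals are exact (Clopper-Pearson, 95%), and the limit for a count of 0 is 3 genes of the total. No test was made between ages.

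The members and lists were chosen with earlier results of these data known. Named were genes bound in all 4 JunB libraries, the 5 strongest among those bound only in the aged library, those bound in at least 2 young libraries and not in the aged one, the 5 strongest H3K27ac peaks, genes without H3K27ac, and the H1, Hist2, Hist3 and Hist4 genes. Alternatives covered the window (500 bp, 3 kb), the gene's 5′ end, −log10 q of at least 2, equal numbers of peaks, the 2000 strongest peaks, summits, loci, the comparison genes and each young library. The common lowest −log10 p and the removal of repeated sequence were chosen after seeing the data. Other peaks named here for their position or sequence were also chosen after their values were seen.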

Additional observations from a re-analysis of the deposited data

How the results depend on the processing

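The results kept their direction under the 500 bp window, the 3 kb window, the gene's 5′ end, −log10 q of at least 2, the summit rule, counting loci once, the common lowest −log10 p and the comparison with non-member genes. The aged difference from all genes, 7.41 points, shrank to 1.39 at 500 bp and to 0.358 at the common lowest −log10 p. The aged minus young difference was 19.9 points at 500 bp, 30.9 at 3 kb and 16.9 at the common lowest −log10 p, where the aged share was 17.9% and the share with aged JunB and H3K27ac 16.4%. H3K27ac reached 73.1% of the genes at 3 kb, and 9 loci were bound in the aged library alone.

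With equal numbers of peaks the histone genes were below all genes in the aged library, by -1.74 points, with 5.97% bound. There were then 4 genes aged only, 5.97% with both marks and an age difference of 5.97 points. Young replicate 1 had 0%, against 4.36% of all genes. With the 2000 strongest peaks the differences from all genes were -3.98 points (aged), -2.32 (young replicate 2) and -1.96 (H3K27ac), at 2.99% marked. The young replicate 1 and aged shares, the age difference, the genes with both marks and those aged only were then all 0. Fewer peaks were used in both settings by construction. Without peaks of repeated sequence the differences from all genes were -4.02 points in the aged library and -7.69 for H3K27ac, with 16.4% bound, 37.3% marked, 16.4% with both, an age difference of 14.9 points and 8 genes aged only. Against genes with another TSS within 1 kb the differences were -11.8, -11.9 and -9.07 points in young replicates 1 to 3, -11.6 in the aged library and -18.4 for H3K27ac. Beyond the peaks or genes each setting takes away, the cause was not tested.

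Leaving out each young library gave an age difference of 26.1 to 28.4 points, 16 to 19 genes aged only and 0 bound in all the libraries left. For all protein-coding genes, the shares aged only (12.1%), bound in all 4 JunB libraries (3.48%) and with both marks (18.3%) were counted in the main setting alone. Under the other settings such counts have no share beside them and cannot be read as a trait of the histone genes. No paired analysis was possible because the aged group has 1 library and the result comes from no test. Depth was not taken into account, since the lists hold no read counts.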
